A study of Mus musculus with 22 samples.

Results

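Proximal promoter regions are the stretches of H3K4me3 signal centred within 250 bp of a transcription start site (TSS) in the position annotation that came with the region tables of this series. They were taken as every region annotated ProximalPromoter, a choice that used position and no measured value. They numbered 463 of 13603 listed regions for Tg197 against wild-type (WT) cells at 3 weeks of age, 119 of 2923 at 8 weeks, 238 of 6593 at 11 weeks, and 257 of 3082 for TNF-treated against untreated WT cells of 8 weeks, in all 1077 of 26201. The largest distance from region centre to TSS was 249.5 bp, and 0 regions of any other class lay within the 250 bp limit. Regions of the members were 1000 to 2800 bp long on the mm9 build.

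The cells were cultured synovial fibroblasts, which line the joint and make its matrix, at passage 4 to 5, from mice of a CBA x C57BL/6J background. Tg197 is an arthritis model in which mice bear a transgene for human TNF, and the series calls the ages of 3, 8 and 11 weeks early, established and late. The groups were Tg197 and WT cells at each age and WT cells of 8 weeks with added TNF, each with 3 libraries, and H3K4me3 was measured by chromatin immunoprecipitation and sequencing (ChIP-seq). The dose and time of TNF treatment and the origin of the 3 libraries of a group, from 1 or several mice or cultures, are not stated in the labels, so p-values measure only the spread between these libraries. The promoter that drives the transgene is not stated there either, and the cells were measured after passages in culture, away from the joint.

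H3K4me3, trimethylation of lysine 4 of histone H3, is written by the SET1 and MLL methyltransferase complexes and marks the nucleosomes that flank the start of active or poised genes. Promoters rich in CpG dinucleotides usually carry the mark in most cell types, since the CFP1 subunit of SET1 complexes binds unmethylated CpG. CpG-poor promoters, often of genes restricted to particular tissues, carry it mainly where the gene is active.

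The promoter windows below are shown because the direction of the H3K4me3 difference and the CpG content of the promoter went together at 3 weeks. The genes were drawn from all 4 comparisons, so they show a range of CpG content and not the 3 week pattern. They were chosen after the values were seen, among genes with a single RefSeq window, and are RefSeq sequences of the GRCm38.p6 build from 250 bases before to 50 after the start, matched by gene symbol, while the H3K4me3 regions are on mm9. Capitals mark CpG dinucleotides and sequences run 5′ to 3′ on the gene's strand. H3K4me3 was higher in Tg197 cells of 3 weeks at Gfm1, which encodes a mitochondrial translation elongation factor (chr3:67429865-67430164, plus strand, 16 CpG). It was higher in Tg197 cells of 8 and 11 weeks at Pgk1, a glycolytic enzyme (chrX:106186850-106187149, plus strand, 24 CpG). At Bcr, a GTPase-activating kinase (chr10:75060646-75060945, plus strand, 48 CpG), it was higher in TNF-treated cells and in Tg197 cells of 3 weeks.
Gfm1: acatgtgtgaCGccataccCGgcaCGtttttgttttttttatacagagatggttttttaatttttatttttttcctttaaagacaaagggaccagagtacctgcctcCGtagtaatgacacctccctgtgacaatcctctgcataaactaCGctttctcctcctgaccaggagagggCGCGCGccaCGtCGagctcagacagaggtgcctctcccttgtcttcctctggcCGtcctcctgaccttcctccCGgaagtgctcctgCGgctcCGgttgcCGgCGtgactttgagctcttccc
Pgk1: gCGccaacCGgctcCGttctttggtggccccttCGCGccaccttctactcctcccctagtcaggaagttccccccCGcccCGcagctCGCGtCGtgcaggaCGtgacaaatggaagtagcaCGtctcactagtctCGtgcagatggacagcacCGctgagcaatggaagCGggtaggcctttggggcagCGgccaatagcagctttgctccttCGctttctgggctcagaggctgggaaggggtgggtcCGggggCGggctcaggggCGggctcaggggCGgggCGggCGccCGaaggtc
Bcr: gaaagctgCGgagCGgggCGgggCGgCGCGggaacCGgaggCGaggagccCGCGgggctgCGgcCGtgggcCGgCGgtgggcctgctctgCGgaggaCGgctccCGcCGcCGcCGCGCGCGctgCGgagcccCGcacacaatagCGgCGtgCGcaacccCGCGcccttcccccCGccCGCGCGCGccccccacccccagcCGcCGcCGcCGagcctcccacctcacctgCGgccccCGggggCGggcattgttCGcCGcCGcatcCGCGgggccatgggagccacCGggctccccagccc
H3K4me3 was lower in Tg197 cells of 3 weeks at Gcm1, a trophoblast transcription factor (chr9:78051708-78052007, plus strand, 1 CpG). In Tg197 cells of 8 weeks it was lower at Hrc, a calcium-binding protein of the sarcoplasmic reticulum (chr7:45335019-45335318, plus strand, 3 CpG). The same held at 8 weeks for Cd72, a B cell surface receptor (chr4:43454577-43454876, minus strand, 7 CpG), which was also lower in TNF-treated cells. In Tg197 cells of 11 weeks it was lower at Dap, a death-associated protein (chr15:31224135-31224434, plus strand, 32 CpG). Isyna1, the inositol-3-phosphate synthase, was lower in TNF-treated cells (chr8:70594231-70594530, plus strand, 24 CpG).
Gcm1: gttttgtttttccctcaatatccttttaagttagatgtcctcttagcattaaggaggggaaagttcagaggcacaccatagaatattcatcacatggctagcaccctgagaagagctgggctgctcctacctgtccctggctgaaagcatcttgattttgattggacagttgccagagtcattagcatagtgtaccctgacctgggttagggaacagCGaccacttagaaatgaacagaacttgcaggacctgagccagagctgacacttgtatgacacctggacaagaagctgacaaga
Hrc: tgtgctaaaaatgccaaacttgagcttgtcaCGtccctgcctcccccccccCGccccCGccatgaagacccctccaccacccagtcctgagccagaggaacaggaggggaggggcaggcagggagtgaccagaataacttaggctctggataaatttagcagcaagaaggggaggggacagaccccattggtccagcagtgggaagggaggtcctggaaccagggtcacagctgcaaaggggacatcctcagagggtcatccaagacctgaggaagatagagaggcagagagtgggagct
Cd72: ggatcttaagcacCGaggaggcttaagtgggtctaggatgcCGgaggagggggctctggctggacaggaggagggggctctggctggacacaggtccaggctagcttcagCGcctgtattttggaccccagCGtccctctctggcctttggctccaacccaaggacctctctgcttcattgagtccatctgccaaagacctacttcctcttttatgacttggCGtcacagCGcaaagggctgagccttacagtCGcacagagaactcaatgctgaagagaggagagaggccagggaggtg
Dap: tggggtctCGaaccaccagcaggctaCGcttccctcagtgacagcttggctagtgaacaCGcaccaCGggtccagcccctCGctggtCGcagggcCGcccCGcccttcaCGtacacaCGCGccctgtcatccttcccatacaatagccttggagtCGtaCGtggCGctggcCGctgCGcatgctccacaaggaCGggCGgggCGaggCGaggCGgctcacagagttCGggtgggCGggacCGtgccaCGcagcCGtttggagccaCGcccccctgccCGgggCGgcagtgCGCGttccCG
Isyna1: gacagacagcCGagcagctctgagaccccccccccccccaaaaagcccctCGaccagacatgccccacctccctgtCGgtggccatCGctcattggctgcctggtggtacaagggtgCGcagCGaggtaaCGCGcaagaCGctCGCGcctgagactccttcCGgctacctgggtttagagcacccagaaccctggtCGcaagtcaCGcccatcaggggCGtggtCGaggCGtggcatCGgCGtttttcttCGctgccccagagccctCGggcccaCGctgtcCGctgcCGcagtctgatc

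Values are read counts of a region as the authors normalized them. Libraries have no replicate number in the tables, where they stand in the order a, b, c. A region is called higher or lower where it passed the authors' adjusted p of 0.05, and it is said to have risen or fallen where it passed an adjusted p of 0.05 from limma on the values of the libraries. The tables list only regions whose best window passed p of 0.0001 in the deposited test, which leaves out promoters without a difference, and limma's p is not independent evidence that a listed region differs. Library depth, in reads per normalized read, lay between 0.544 and 2.75. In cultures of many cells, a smaller share of cells with the mark and less mark per cell cannot be told apart.

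Most proximal promoters carried more H3K4me3 in Tg197 or TNF-treated cells, while most other listed regions carried less. At 3 weeks 407 of 463 proximal promoters were higher in Tg197 cells and 45 were lower, where 9.71% and 89.5% of all listed regions were higher and lower. At 8 weeks 73 of 119 were higher and 43 lower, against 20.2% and 77.2% of all regions. At 11 weeks 164 of 238 were higher and 50 lower, against 29.8% and 67%. With TNF 182 of 257 were higher and 59 lower, against 24.6% and 72.3%. The other 11, 3, 24 and 16 members of the 4 tables did not pass the authors' adjusted p. Higher promoters had a median log2 change of 0.40, 0.48, 0.43 and 0.47 at 3, 8 and 11 weeks and with TNF. Lower promoters had a median of -0.65, -0.70, -0.50 and -0.47.

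By limma, 185 proximal promoters rose and 42 fell at 3 weeks, where 4.68% and 88.9% of all regions did. At 11 weeks 157 rose and 47 fell, against 29.6% and 67.7%, and with TNF 126 rose and 26 fell, against 16.5% and 42.6%. At 8 weeks limma called 0 members in either direction and 0% of all regions, and voom on the recovered reads also called 0. At an unadjusted limma p under 0.05, 25 members had a positive and 25 a negative log2 change. The share of all regions under that p was not counted, so these numbers show nothing particular to proximal promoters. The Tg197 libraries all lay above the WT libraries at 262 members at 3 weeks, 61 at 8 weeks and 171 at 11 weeks, and the TNF-treated above the untreated libraries at 165. The same held for 6.29%, 16.9%, 28.8% and 22.4% of all regions. They all lay below at 43, 33, 50 and 51 members, and at 86.4%, 46.3%, 67.1% and 51.8% of all regions.

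Several of these limma counts changed widely when a library was left out. Such a fit also has fewer libraries, and the part of this in the smaller counts was not tested. At 3 weeks, leaving out WT library c left 0 risen and 0 fallen promoters, leaving out WT library a left 19 and 23, and leaving out WT library b left 21 and 26. Without Tg197 library a 71 promoters rose and without Tg197 library c 380 did. At 8 weeks 41 rose and 37 fell once WT library c was left out. With TNF, 0 promoters rose or fell without TNF library b, without TNF library c, without WT library a or without WT library b, 77 rose and 19 fell without TNF library a, and 184 rose and 52 fell without WT library c. At 11 weeks the counts stayed between 135 and 150 risen and between 39 and 45 fallen.

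The share of higher regions was smaller with each step away from the TSS in all 4 comparisons. At 3 weeks 87.9% of proximal promoters were higher in Tg197 cells, against 63.8% of regions between 250 bp and 1 kb, 11.2% between 1 and 3 kb and 0.928% in gene bodies. At 8 weeks the shares were 61.3%, 49.6%, 36.4% and 4.59%, at 11 weeks 68.9%, 53.1%, 35.4% and 24.6%, and with TNF 70.8%, 43.1%, 23% and 2.96%. Median log2 change had the same order at 3 weeks, 0.39 at proximal promoters, 0.34 up to 1 kb, -0.63 up to 3 kb and -0.73 in gene bodies. At 11 weeks it was 0.34, 0.21, -0.53 and -0.63. These shares are over regions listed for a difference, and neighbouring regions are not independent.

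**Figure D1:**
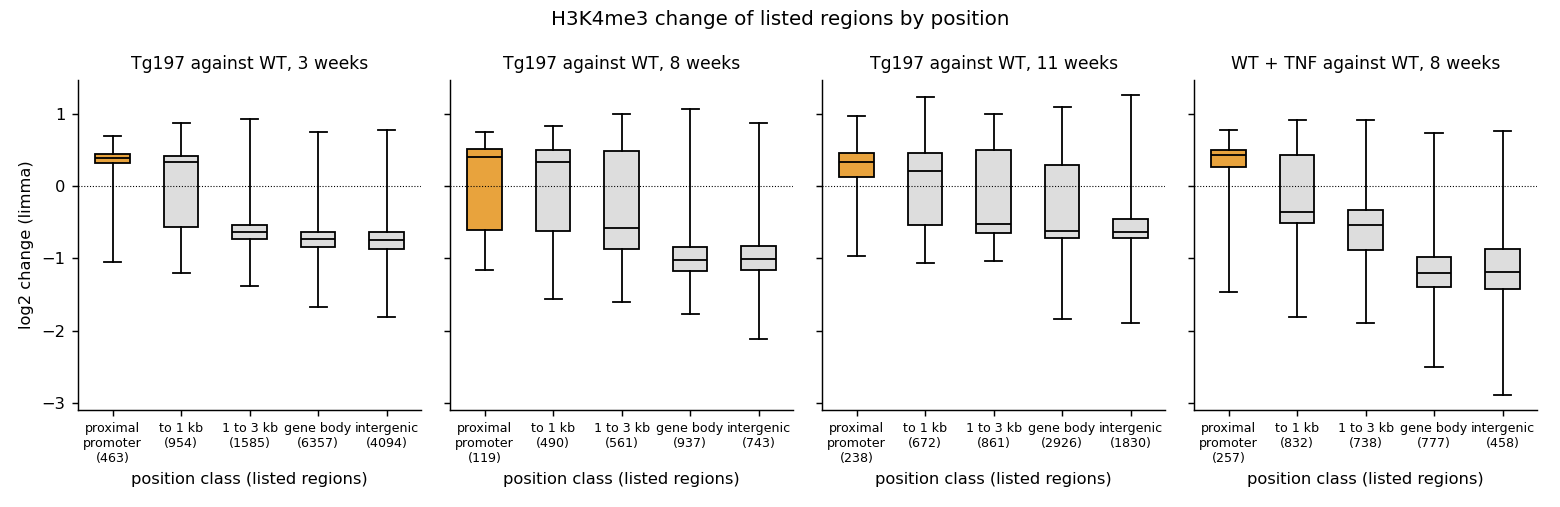
Log2 change of the listed regions by position in the 4 comparisons, limma, with the number of regions in brackets. Boxes show quartiles, the line the median and whiskers the lowest and highest region. Proximal promoters, in orange, had medians of 0.39, 0.40, 0.34 and 0.44, and medians of gene bodies were below 0 in every comparison.

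Higher and lower promoters differed in level. The median level at 3 weeks was 233 normalized reads per kb at higher and 105 at lower promoters, with 189 and 125 at 8 weeks, and 219 and 158 with TNF. At 11 weeks the medians were close, 196 and 189. The highest level among members of the 3 week table was at 6820431F20Rik (954 normalized reads per kb). Next came Vim, which encodes the fibroblast intermediate filament vimentin (401 per kb), Rps2, a ribosomal protein, Actr2, a subunit of the actin-nucleating Arp2/3 complex, and Pisd-ps1. These 5 were higher by the authors' test, and none of them passed limma. In the other tables the highest level was at copies of Rn4.5s, a small cytoplasmic RNA with many near-identical copies, so its reads cannot be assigned to 1 copy with confidence and its 4 regions at 8 weeks are uncertain. High levels were also found at 11 weeks at Eef2, the translation elongation factor (389 per kb), and H3f3b, which encodes the replacement histone H3.3 (379 per kb). H3f3b fell (log2 change -0.23 ± 0.08, limma adjusted p = 0.0175), with a log2 change of 0.11 when scaled to the listed regions.

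**Figure D2:**
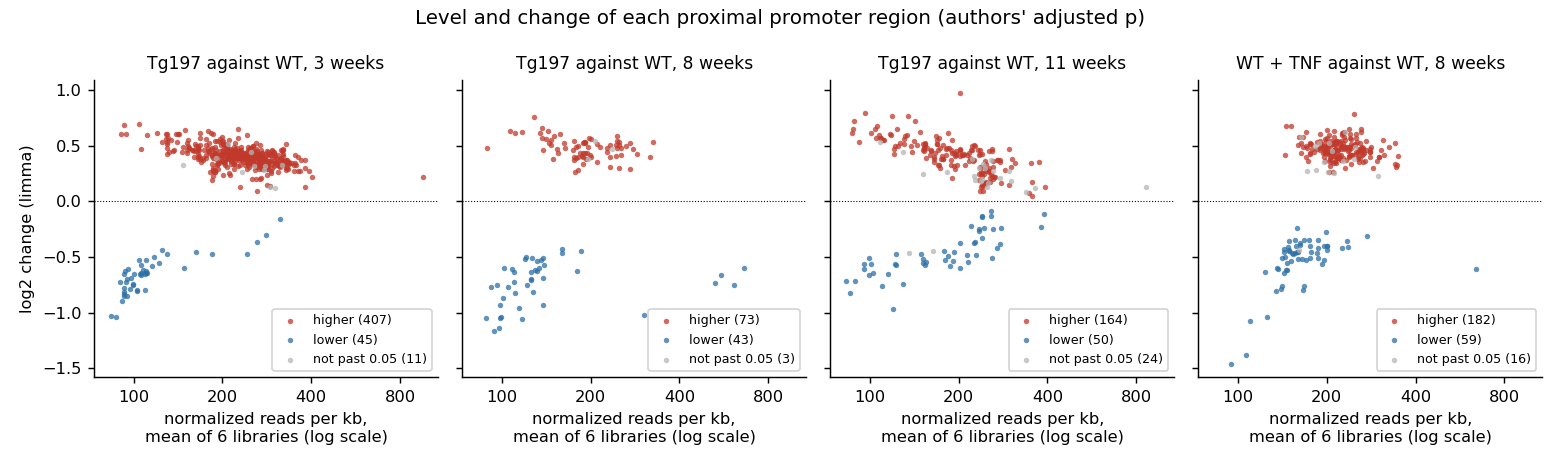
Log2 change (limma) of every proximal promoter region against its level, the mean of 6 libraries in normalized reads per kb on a log scale. Points are coloured by the authors' call, red for higher and blue for lower. Lower promoters sat at a median of 105 and higher ones at 233 reads per kb at 3 weeks, and the points at 11 weeks shared 1 range of levels.

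The authors' deposited enrichment over input gave the same direction as the counts at every higher promoter but not at every lower one. It also did so at 100% of all higher regions in each comparison, so this was not particular to promoters. With TNF, enrichment was larger in TNF-treated cells at 254 of 257 proximal promoters of any call, and at 65.4% of all listed regions. At higher promoters the median enrichment was 8.19 in Tg197 and 4.11 in WT cells at 3 weeks, 7.41 and 3.57 at 8 weeks, 5.30 and 3.87 at 11 weeks, and 9.64 in TNF-treated and 3.42 in untreated cells. At lower promoters it was 2.44 and 2.99 at 3 weeks, 2.61 and 2.72 at 8 weeks and 3.38 and 4.29 at 11 weeks. With TNF the lower promoters went the other way, with a median enrichment of 4.80 in TNF-treated and 3.32 in untreated cells, and 56 of 59 had the larger enrichment in TNF-treated cells. The same held with TNF for 411 of 434 lower regions between 250 bp and 1 kb and for 52.7% of all lower regions. Enrichment was larger in Tg197 cells at 9 of 45 lower promoters at 3 weeks, 13 of 43 at 8 weeks and 0 of 50 at 11 weeks. Of all lower regions, this was so for 3.3%, 10.8% and 0.2% at these ages. The labels do not state how the enrichment was scaled.

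The share of all reads in listed regions that lay in proximal promoters was larger in the Tg197 and TNF-treated libraries. Regions were listed for a difference between these same libraries, so this share largely restates the calls above and is not separate evidence. It was 7.52, 10.3 and 5.65% in the Tg197 libraries at 3 weeks, against 4.22, 4.19 and 4.00% in WT libraries. At 11 weeks it was 6.97, 6.56 and 7.47% in Tg197, against 5.10, 5.43 and 5.33% in WT libraries. The groups did not overlap at either age. At 8 weeks it was 5.88, 5.00 and 6.14% in Tg197, against 3.61, 3.57 and 5.60% in WT libraries, and with TNF 11.2, 14.5 and 12.5% in TNF-treated, against 7.13, 7.07 and 10.2% in untreated libraries. WT library c of 8 weeks, which both of these comparisons use, stood above the other 2 WT libraries and, at 8 weeks, inside the Tg197 range. Within the groups of 3 weeks and of the TNF comparison, and in the WT libraries of 8 weeks, deeper libraries had the larger share. Depth was 1.87, 0.742 and 1.26 times the authors' scaling in the Tg197 libraries of 8 weeks and 0.684, 0.636 and 1.39 in the WT libraries. It was 0.553, 2.75 and 1.82 in TNF-treated libraries, and 1.26, 1.73 and 0.736 in Tg197 against 0.952, 0.895 and 0.812 in WT libraries at 3 weeks. TNF-treated library a, at depth 0.553, had a larger share than untreated library c, at depth 1.23. At 11 weeks depths were alike, 0.934, 0.976 and 1.19 in Tg197 and 0.906, 1.15 and 0.89 in WT libraries. The depth ranges of the groups overlapped in each comparison. Tg197 library c of 3 weeks had the lowest depth of that comparison, 0.736, and a share of 5.65%, above all WT libraries. The part of depth in the shares was not tested.

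**Figure D3:**
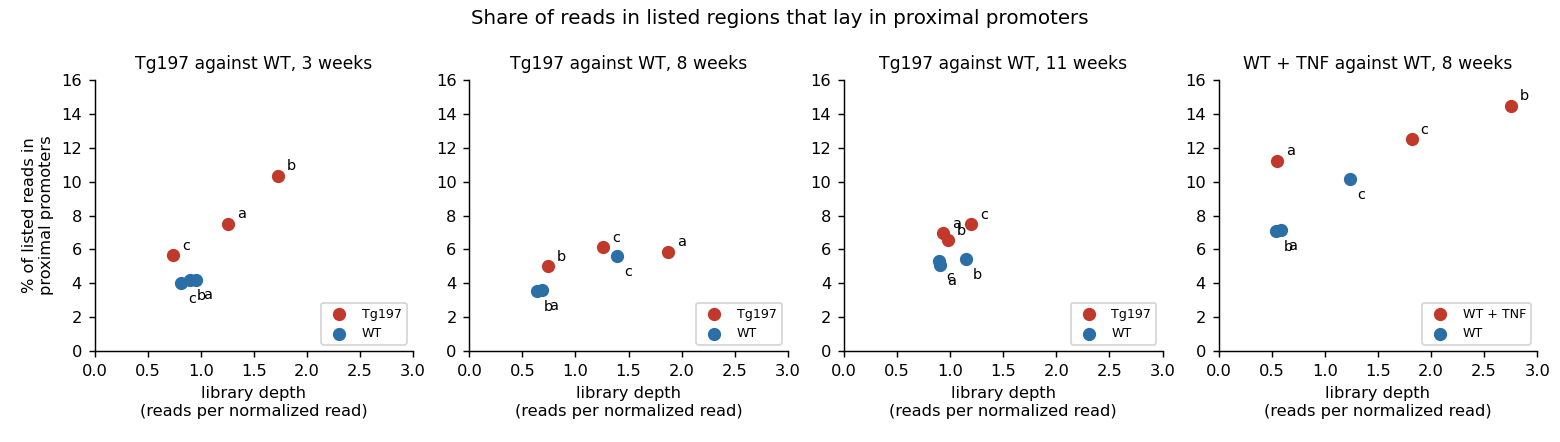
Percent of the reads in listed regions that lay in proximal promoters, for each library (a, b and c), against library depth in reads per normalized read. Red points are Tg197 or TNF-treated and blue points WT libraries. At 11 weeks the groups separate at like depth, while at 8 weeks WT library c, the deepest WT library, sits among the Tg197 libraries. The regions were listed for a difference between these groups, so a separation follows in part from the listing.

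The direction at lower promoters depends on the scaling. When the median of all listed regions was made equal in every library, the lower promoters of the 3, 8 and 11 week tables had median log2 changes of 0.02, 0.01 and -0.16, while with TNF the median was 0.04, and 27 of 45, 23 of 43, 13 of 50 and 33 of 59 lay above 0. That scaling puts the median of all listed regions of 3 weeks at -0.04, in place of -0.70. When the listed regions up to 1 kb from a TSS were made equal instead, the median of all proximal promoters was 0.06, 0.28, 0.19 and 0.33, in place of 0.39, 0.40, 0.34 and 0.44. The median of all proximal promoters was above 0 under each scaling, while the median of the lower promoters changed sign at 3 and 8 weeks and with TNF and stayed below 0 at 11 weeks. Directions given from here on are those of the authors' scaling.

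At 3 weeks the largest increases, among promoters whose groups did not overlap, were between 0.61 and 0.69 on the log2 scale. Fmn1, which encodes the actin nucleator formin 1 (chr2:113167401-113168500), had 122, 146 and 158 normalized reads in the Tg197 libraries, against 102, 81.6 and 78.9 in the WT libraries. All Tg197 libraries lay above all WT libraries (log2 change 0.69 ± 0.19, limma adjusted p = 0.0143). Gfm1, the mitochondrial elongation factor whose promoter is printed above (chr3:67233701-67234700), had 278, 311 and 238 normalized reads in the Tg197 libraries, against 158, 210.1 and 161 in the WT libraries (log2 change 0.65 ± 0.19, limma adjusted p = 0.0143). Klf5, a Krüppel-like transcription factor (chr14:99697401-99698400), had 193, 215 and 194 normalized reads in the Tg197 libraries, against 95.6, 129 and 184 in the WT libraries (log2 change 0.61 ± 0.22, limma adjusted p = 0.021). Neither promoter showed overlap, although WT library c came close to the Tg197 libraries at Klf5. Grin3a, a subunit of NMDA glutamate receptors, rose by 0.68, Synj2, an inositol phosphatase of vesicle traffic, by 0.64, Ankrd39 by 0.63, Spcs3, a subunit of the signal peptidase, by 0.62, and Zfp882, a zinc finger protein, by 0.61 on the log2 scale, each with limma adjusted p of at most 0.0166.

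The largest decreases at 3 weeks, among promoters whose groups did not overlap, were between -0.81 and -1.04 on the log2 scale, at promoters with low levels of the mark. Gcm1, the trophoblast factor with 1 CpG in its window (chr9:77899101-77900100), had 59.6, 30.1 and 84.2 normalized reads in the Tg197 libraries, against 105, 105 and 119.5 in the WT libraries (log2 change -1.03 ± 0.37, limma adjusted p = 0.0204). Runx1, a transcription factor of blood formation (chr16:92825801-92826800), had 60.4, 48.7 and 85.5 normalized reads in the Tg197 libraries, against 117, 116 and 122 in the WT libraries (log2 change -0.90 ± 0.26, limma adjusted p = 0.0143). Pik3cd, the leukocyte-enriched catalytic subunit of PI3-kinase (chr4:149075001-149076000), had 93.0, 37.7 and 76.0 normalized reads in the Tg197 libraries, against 123, 104 and 124 in the WT libraries (log2 change -0.85 ± 0.32, limma adjusted p = 0.0224). All Tg197 libraries lay below the WT libraries there, and Tg197 library b, the deepest library of the table, was the lowest of the 6 at each. Morn3 fell by 1.04, Islr2, a neuronal membrane protein, by 0.85, Cbfa2t3, a corepressor of blood cell genes, by 0.83, Hes3, a bHLH repressor of neural progenitors, by 0.82, and Arhgap9 by 0.81 on the log2 scale, each with limma adjusted p of at most 0.0187. None of the 16 changes named here for 3 weeks passed limma without WT library c.

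Of the gene lists, zinc finger genes named Zfp had the most members. At 3 weeks 12 of 12 were higher in Tg197 cells and 6 rose by limma, where 87.9% of all proximal promoters were higher and 40% rose, with a median log2 change of 0.42, near the 0.39 of all proximal promoters. Counting regions of any promoter class, 34 Zfp genes had a higher and 25 a lower region. Zfp622 had 483, 512 and 399 normalized reads in the Tg197 libraries, against 351, 339.8 and 281 in the WT libraries (log2 change 0.52 ± 0.18, limma adjusted p = 0.0186), without overlap. Of the 25 genes on the list of NF-kB subunits and feedback regulators, 2 had a listed proximal promoter at 3 weeks, Nfkb2, the p100 subunit, which rose, and Nfkbiz, an atypical inhibitor, which was higher without passing limma (log2 change 0.34 ± 0.22, limma adjusted p = 0.155), and 0 had one at 8 weeks, 11 weeks or with TNF. Listed regions of any promoter class were found for 11, 4, 8 and 10 of the 25 in the 4 tables. Over all genes too, proximal promoters were the smallest promoter class in every table, with 463 beside 954 regions to 1 kb and 1585 to 3 kb at 3 weeks. A higher region was found for 9, 4, 8 and 9 of these genes and a lower region for 2, 0, 0 and 1. Of all regions between 250 bp and 1 kb, 63.8%, 49.6%, 53.1% and 43.1% were higher, and between 1 and 3 kb 11.2%, 36.4%, 35.4% and 23%. Of 30 immediate-early genes, Dusp1, a phosphatase of MAP kinases (log2 change 0.40 ± 0.25, limma adjusted p = 0.135), and Mafk, a small Maf factor (log2 change 0.29 ± 0.29, limma adjusted p = 0.334), were higher at 3 weeks and neither passed limma. The values at Dusp1 were 565, 735 and 338 normalized reads in the Tg197 libraries, against 403, 422 and 359 in the WT libraries, and the groups overlapped because of Tg197 library c.

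Single members of other lists moved at 3 weeks. Of 25 interferon response genes, Ddx60, an RNA helicase, rose (log2 change 0.48 ± 0.19, limma adjusted p = 0.0293) and Isg20, an exonuclease, fell (log2 change -0.64 ± 0.18, limma adjusted p = 0.0143). Of 25 genes of bone and of Wnt and BMP signalling, Chrd, the BMP antagonist chordin, rose (log2 change 0.46 ± 0.18, limma adjusted p = 0.0254). Snrpn, an imprinted spliceosome gene, had 172, 192 and 151 normalized reads in the Tg197 libraries, against 101, 123 and 113 in the WT libraries and rose (log2 change 0.60 ± 0.18, limma adjusted p = 0.0144). The splicing factor gene Sfrs15, the ribosomal genes Rps2 and Rps27l and the respiratory chain genes Ndufa11 and Ndufa12 were higher, and none of the 5 passed limma. Over any promoter class, 5 ribosomal genes had a higher and 7 a lower region. The numbers were 4 and 10 for respiratory chain genes and 3 and 6 for splicing genes. Hist1h2bm, a histone H2B gene of a cluster of near-identical copies, rose (log2 change 0.39 ± 0.17, limma adjusted p = 0.0414). Hoxc4, a positional transcription factor, fell (log2 change -0.58 ± 0.20, limma adjusted p = 0.0195) but had a log2 change of 0.09 with scaling to the listed regions. Lists of cytoskeletal and cell cycle genes had no listed proximal promoter in any table.

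Markers of fibroblasts and of other cells rarely had a listed proximal promoter. Of 10 fibroblast markers, Vim was a member at 3 weeks, with 553, 587 and 209 normalized reads in the Tg197 libraries, against 369.7, 359 and 328 in the WT libraries, and Pdgfrb, a growth factor receptor of mesenchymal cells, with TNF, with 213, 192 and 179 normalized reads in the TNF-treated libraries, against 288, 167 and 273 in the untreated WT libraries. The groups overlapped at both. Of 7 endothelial markers, Tek, the angiopoietin receptor, fell at 3 weeks (log2 change -0.65 ± 0.19, limma adjusted p = 0.0145). The 11 leukocyte, 6 muscle, 8 cartilage, bone and fat, and 7 nerve sheath and epithelial markers had 0 members in every table. Regions of any promoter class lay at 1, 2, 0 and 0 of the leukocyte markers at 3, 8 and 11 weeks and with TNF, at 1, 1, 0 and 0 of the muscle markers and at 1, 2, 2 and 2 of the cartilage, bone and fat markers, and were lower in each case. Of the endothelial markers 1 had a higher and 1 a lower region at 3 weeks and likewise at 11 weeks, and of the nerve sheath and epithelial markers 1 had a lower region at 3 weeks and 1 a higher region at 11 weeks. Of the fibroblast markers 4, 2, 3 and 1 had a higher and 1, 0, 0 and 1 a lower region. Since unchanged regions are not listed, the level of the marker lists in each library cannot be read from these tables, and the part of other cell types in the results was not tested.

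At 8 weeks 4 of the 5 largest increases among promoters without overlap were on the X chromosome, and the 4 X-linked members of the table were higher, where 61.3% of all members were. Of all 51 listed regions on the X chromosome at 8 weeks, 8 were higher and 41 lower. Pgk1, the glycolytic phosphoglycerate kinase (chrX:103381701-103383200), had 199, 347 and 249 normalized reads in the Tg197 libraries, against 162, 174 and 163 in the WT libraries. Atg4a, a protease of autophagy (chrX:137491101-137492200), had 116, 156 and 155 normalized reads in the Tg197 libraries, against 84.8, 88.0 and 101 in the WT libraries. Mtcp1 (chrX:72661301-72662300) had 147, 142 and 114 normalized reads in the Tg197 libraries, against 86.2, 84.8 and 89.7 in the WT libraries, and Hs6st2, a heparan sulfate sulfotransferase (chrX:49033101-49034100), had 147, 132 and 138 normalized reads in the Tg197 libraries, against 108, 58.1 and 117 in the WT libraries. The Tg197 libraries lay above the WT libraries at each, and the changes were 0.63, 0.63, 0.62 and 0.62 on the log2 scale, with limma adjusted p between 0.0725 and 0.104. The labels do not state the sex of the mice, and elsewhere 4 of 4 X-linked members at 3 weeks, 2 of 3 at 11 weeks and 1 of 1 with TNF were higher, near the share of all members at 3 and 11 weeks. Srp54b, a subunit of the signal recognition particle, showed the largest increase (log2 change 0.75 ± 0.26, limma adjusted p = 0.0725). Sec61g, part of the channel through which secreted proteins enter the endoplasmic reticulum, was higher (log2 change 0.61 ± 0.24, limma adjusted p = 0.0725), as were 4930444A02Rik and AW209491.

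The largest decreases at 8 weeks, among promoters whose groups did not overlap, were between -0.87 and -1.14 on the log2 scale. Camk2a, a neuronal kinase, had -1.16 with overlap. Sp7, which encodes osterix, the transcription factor of osteoblasts (chr15:102196201-102197300), had 53.4, 105 and 99.0 normalized reads in the Tg197 libraries, against 178, 156 and 182 in the WT libraries (log2 change -1.06 ± 0.31, limma adjusted p = 0.0725). Hoxc6, a positional factor of the Hoxc cluster (chr15:102839501-102840500), had 46.5, 56.6 and 64.2 normalized reads in the Tg197 libraries, against 149, 139.8 and 73.2 in the WT libraries (log2 change -1.05 ± 0.41, limma adjusted p = 0.0725). Hrc, the calcium-binding protein whose CpG-poor promoter is printed above (chr7:52590001-52591000), had 40.6, 74.2 and 70.5 normalized reads in the Tg197 libraries, against 156, 143 and 103 in the WT libraries (log2 change -1.14 ± 0.37, limma adjusted p = 0.0725). All Tg197 libraries lay below the WT libraries at these promoters. WT library c was the lowest WT library at Hoxc6, close to the Tg197 libraries, and at Hrc, and the highest at Sp7. Fam83e (-0.96), Chchd10, a protein of mitochondrial cristae (-0.93), Creb3l4, a membrane-bound transcription factor (-0.87), Cd72 (-1.05) and Hltf, a DNA repair helicase (-0.93), were also lower, as log2 changes without a pass by limma. At Hltf the difference rested on Tg197 library b, with values of 146, 32.4 and 144 normalized reads in the Tg197 libraries, against 158, 179 and 170.0 in the WT libraries.

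Few list members were found at 8 weeks. Psmc2, an ATPase subunit of the proteasome, had 169, 175 and 162 normalized reads in the Tg197 libraries, against 115, 124 and 103 in the WT libraries and was higher without overlap (log2 change 0.56 ± 0.21, limma adjusted p = 0.0725). Hist1h1a, a linker histone gene, was lower (log2 change -0.64 ± 0.25, limma adjusted p = 0.0725), with a log2 change of 0.08 when scaled to the listed regions. No Zfp gene had a listed proximal promoter.

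At 11 weeks, the comparison whose libraries varied least in depth, the largest increase was at Pgk1. Its region (chrX:103381201-103383500) had 1212, 422 and 314 normalized reads in the Tg197 libraries, against 255, 279 and 299 in the WT libraries (log2 change 0.97 ± 0.34, limma adjusted p = 0.0148). Tg197 library a was far above the other Tg197 libraries, and without it the log2 change was 0.39 (limma adjusted p = 0.0116), while without WT library a the adjusted p was 0.0611. Zfp820, a zinc finger gene (chr17:21982201-21983200), had 175, 143 and 188 normalized reads in the Tg197 libraries, against 116, 76.8 and 107 in the WT libraries (log2 change 0.77 ± 0.17, limma adjusted p = 0.00434). Gbp9, an interferon-inducible guanylate-binding protein (chr5:105538901-105539900), had 109, 102 and 116 normalized reads in the Tg197 libraries, against 76.2, 77.6 and 48.3 in the WT libraries (log2 change 0.72 ± 0.21, limma adjusted p = 0.00582). Trappc9, a subunit of a vesicle tethering complex (chr15:72891301-72892300), had 191, 155 and 185 normalized reads in the Tg197 libraries, against 94.9, 96.8 and 131 in the WT libraries (log2 change 0.72 ± 0.16, limma adjusted p = 0.00434). Tg197 libraries lay above WT libraries at these 4 promoters. Sult6b1, a sulfotransferase (0.79), Ecscr, an endothelial surface protein (0.77), E130309F12Rik (0.68) and Osbpl5, a lipid transfer protein (0.65), rose as well on the log2 scale.

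The largest decrease at 11 weeks was at C130026I21Rik (chr1:85266301-85268200), with 194, 143 and 125 normalized reads in the Tg197 libraries, against 375, 241 and 289.8 in the WT libraries (log2 change -0.97 ± 0.18, limma adjusted p = 0.00434). Emilin3, an extracellular matrix glycoprotein (chr2:160737401-160738400), had 49.3, 66.6 and 70.3 normalized reads in the Tg197 libraries, against 123, 93.3 and 112 in the WT libraries (log2 change -0.82 ± 0.20, limma adjusted p = 0.00446). Dap, the death-associated protein with a CpG-rich window printed above (chr15:31153401-31154400), had 78.2, 93.2 and 98.0 normalized reads in the Tg197 libraries, against 132, 132 and 159.5 in the WT libraries (log2 change -0.65 ± 0.15, limma adjusted p = 0.00441). Tg197 libraries lay below WT libraries at these 3 promoters. Necab3 fell by 0.76, Gfra4, a receptor of the GDNF family, by 0.71, Gm9079 by 0.71, 1600016N20Rik by 0.66 and 4933429F08Rik by 0.74 on the log2 scale. The fall of 4933429F08Rik rested on Tg197 library a, and without that library the log2 change was -0.24 (limma adjusted p = 0.0976).

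The 6 Zfp members at 11 weeks were higher and 5 of them rose, where 68.9% of all proximal promoters were higher and 66% rose. Their median log2 change was 0.47, against 0.34 over all proximal promoters, and over any promoter class 18 Zfp genes had a higher and 14 a lower region. Zfp330 had 331, 354 and 355 normalized reads in the Tg197 libraries, against 252, 265 and 264 in the WT libraries (log2 change 0.41 ± 0.09, limma adjusted p = 0.00434), and Zfp191 rose to a like extent (log2 change 0.47 ± 0.11, limma adjusted p = 0.00441). Of 4 ribosomal protein genes, Rpl29 rose (log2 change 0.22 ± 0.09, limma adjusted p = 0.0371), Rplp0 was higher without passing limma (log2 change 0.17 ± 0.08, limma adjusted p = 0.0657), and Rpl27a and Rps15a did not pass either test. Ndufs8, a subunit of respiratory complex I, fell (log2 change -0.54 ± 0.17, limma adjusted p = 0.0077), with 99.6, 165 and 119 normalized reads in the Tg197 libraries, against 189, 187 and 172 in the WT libraries. Psmc3, a proteasome ATPase, was higher by the authors' test with a log2 change of 0.08.

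**Figure D4:**
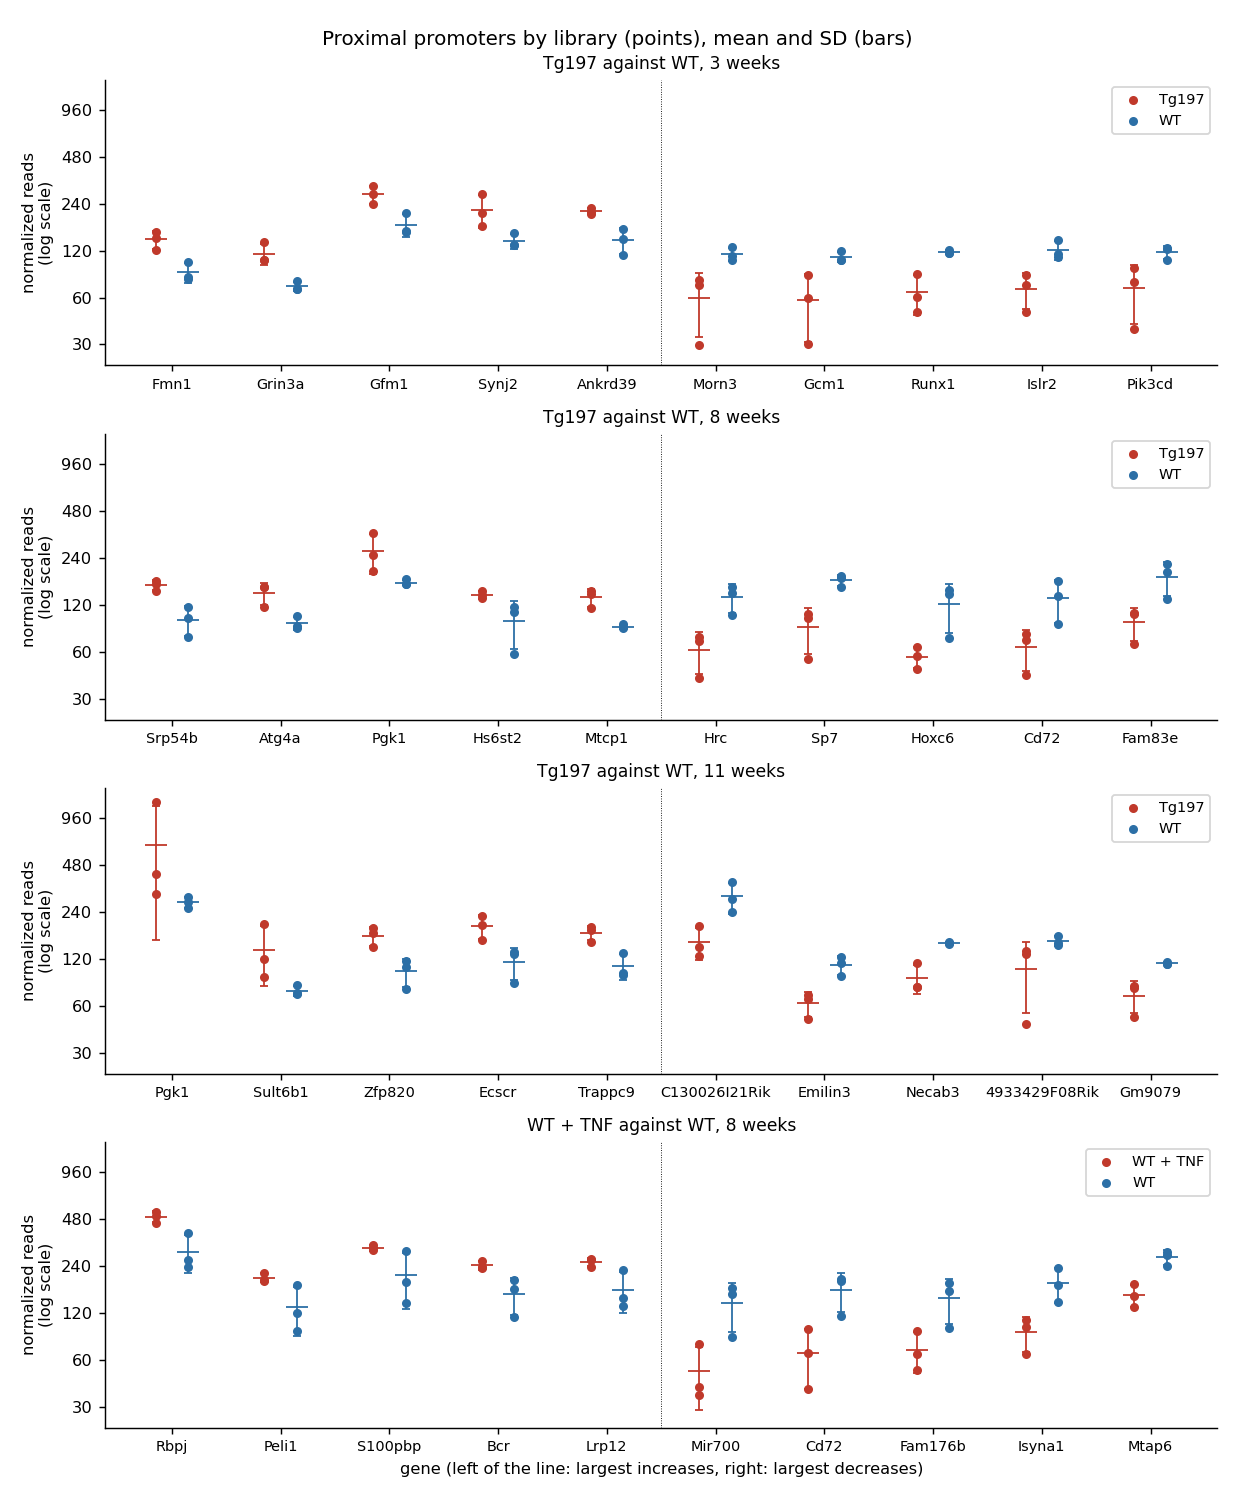
Normalized reads, on a log scale, at the 5 proximal promoters with the largest increase (left of the dotted line) and the 5 with the largest decrease in each comparison. Points are libraries, red for Tg197 or TNF-treated and blue for WT, with the mean and SD (n = 3 each). The groups do not overlap at any of them, by the rule for naming, and WT libraries of 8 weeks spread widely, as at Peli1 with 120.1, 92.0 and 180.1 reads.

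TNF-treated WT cells had their largest increases, among promoters whose groups did not overlap, between 0.61 and 0.78 on the log2 scale. Rbpj, the transcription factor of the Notch pathway (chr5:53980801-53982400), had 456, 534 and 505 normalized reads in the TNF-treated libraries, against 263, 237 and 388 in the untreated WT libraries (log2 change 0.78 ± 0.19, limma adjusted p = 0.046). Peli1, a ubiquitin ligase of Toll-like and interleukin-1 receptor signalling (chr11:20990601-20991700), had 194, 217 and 195 normalized reads in the TNF-treated libraries, against 120.1, 92.0 and 180.1 in the untreated WT libraries (log2 change 0.68 ± 0.26, limma adjusted p = 0.0492). Bcr, with the most CpG of the windows printed above (chr10:74523001-74524000), had 235, 259.7 and 233 normalized reads in the TNF-treated libraries, against 194, 112 and 172 in the untreated WT libraries (log2 change 0.64 ± 0.22, limma adjusted p = 0.046). Ube2d1, a ubiquitin-conjugating enzyme (chr10:70747601-70748600), had 266, 269 and 283 normalized reads in the TNF-treated libraries, against 165, 167 and 206 in the untreated WT libraries (log2 change 0.61 ± 0.15, limma adjusted p = 0.046). No group overlapped the other here, and the TNF-treated libraries lay closer together than the untreated ones at Peli1 and Bcr. S100pbp (0.65), Lrp12, a lipoprotein receptor-related protein (0.63), 2410003K15Rik (0.62) and 3110043O21Rik (0.61) rose too on the log2 scale. Sdc4, the heparan sulfate proteoglycan syndecan 4, was among the highest in level (342 reads per kb) and was higher without passing limma (log2 change 0.52 ± 0.22, limma adjusted p = 0.0548).

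The largest decreases with TNF, again without overlap, were between -0.76 and -1.46 on the log2 scale. The region at the microRNA gene Mir700 (chr4:134972001-134973000) had 76.0, 35.6 and 40.2 normalized reads in the TNF-treated libraries, against 173, 158 and 84.4 in the untreated WT libraries (log2 change -1.46 ± 0.57, limma adjusted p = 0.0502) and just missed limma's threshold. Cd72, the B cell surface protein with a CpG-poor window (chr4:43467101-43468200), had 94.1, 38.9 and 66.6 normalized reads in the TNF-treated libraries, against 199, 191 and 115 in the untreated WT libraries (log2 change -1.38 ± 0.44, limma adjusted p = 0.046). Isyna1, the enzyme that makes inositol phosphate from glucose phosphate (chr8:73117901-73119000), had 97.7, 65.0 and 108 normalized reads in the TNF-treated libraries, against 233, 182 and 141 in the untreated WT libraries (log2 change -1.04 ± 0.31, limma adjusted p = 0.046). Flnc, the muscle filamin (chr6:29382501-29383500), had 107, 116 and 139.8 normalized reads in the TNF-treated libraries, against 254, 182 and 197 in the untreated WT libraries (log2 change -0.80 ± 0.21, limma adjusted p = 0.046). The groups did not overlap at these promoters, and untreated library c was the lowest of the untreated libraries at the first 3. Mtap6, a microtubule-stabilizing protein, fell by 0.81 on the log2 scale. Fam176b (log2 change -1.08 ± 0.42, limma adjusted p = 0.0503), Aloxe3, a skin lipoxygenase (log2 change -0.79 ± 0.31, limma adjusted p = 0.0501), and Cnih2, a subunit of glutamate receptor complexes (log2 change -0.76 ± 0.33, limma adjusted p = 0.0618), were lower by the authors' test.

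Members of the gene lists were few with TNF, where 70.8% of all proximal promoters were higher and 49% rose. The ribosomal protein genes Rpl7 and Rpl23 rose, while over any promoter class 11 ribosomal protein genes had a higher and 15 a lower region. Rpl23 had 347, 468 and 377 normalized reads in the TNF-treated libraries, against 273, 311 and 309.9 in the untreated WT libraries (log2 change 0.41 ± 0.14, limma adjusted p = 0.0463), without overlap of the groups. Of the respiratory chain genes, Ndufaf1, an assembly factor of complex I, rose (log2 change 0.46 ± 0.17, limma adjusted p = 0.0466), while Uqcrh (log2 change 0.42 ± 0.17, limma adjusted p = 0.0518) and Atp5j (log2 change 0.41 ± 0.22, limma adjusted p = 0.106) were higher. Over regions of any promoter class, 7 respiratory chain genes had a higher and 7 a lower region. The 5 Zfp members were higher and 4 rose, with a median of 0.47, against 0.44 over all proximal promoters, while over any promoter class 10 Zfp genes had a higher and 16 a lower region. Of the splicing genes, Sfrs8 rose (log2 change 0.52 ± 0.15, limma adjusted p = 0.046) and Hnrnpul1 was higher (log2 change 0.42 ± 0.19, limma adjusted p = 0.0697), with 7 genes higher and 6 lower over any promoter class. Hist1h1b, a linker histone gene, fell (log2 change -0.47 ± 0.13, limma adjusted p = 0.046) and Hist2h3c2, a histone H3 gene with near-identical copies, was lower (log2 change -0.31 ± 0.12, limma adjusted p = 0.0505). The 2 histone genes had a median log2 change of -0.39, which was 0.12 with scaling to the listed regions. Of the immediate-early genes, Ier5 fell (log2 change -0.42 ± 0.15, limma adjusted p = 0.0461) and Nr4a2, an orphan nuclear receptor, was higher, with 266, 269 and 271 normalized reads in the TNF-treated libraries, against 156, 167 and 269 in the untreated WT libraries and overlap through untreated library c. Hoxa10 was lower (log2 change -0.35 ± 0.19, limma adjusted p = 0.104) and had a positive log2 change of 0.15 with scaling to the listed regions.

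Different promoters were listed at different ages. No gene had a called proximal promoter at all 3 ages, and the 3 and 8 week tables shared 0 genes. The 3 and 11 week tables, whose libraries are separate, shared 9 genes, 1.94% of the 3 week and 3.78% of the 11 week members, and each had the same sign of change at both ages. At these ages 87.9% and 68.9% of all members were higher, so a shared positive sign is not separate evidence of a lasting change. Irgm1, an interferon-inducible GTPase, had 313, 339 and 297 normalized reads in the Tg197 libraries, against 218, 244 and 260.0 in the WT libraries at 3 weeks (log2 change 0.40 ± 0.17, limma adjusted p = 0.0362). At 11 weeks it had 587, 425 and 507 normalized reads in the Tg197 libraries, against 383, 342 and 356 in the WT libraries (log2 change 0.48 ± 0.11, limma adjusted p = 0.00434). Tg197 libraries lay above WT libraries at both ages. Akt1, the survival kinase, rose at both ages as well (log2 change 0.45 ± 0.18 and log2 change 0.42 ± 0.11 at 3 and 11 weeks). Clec2d, a lectin that natural killer cells recognise, was higher at both (log2 change 0.39 ± 0.18 and log2 change 0.50 ± 0.14), as were Rora, a nuclear receptor (log2 change 0.38 ± 0.20 and log2 change 0.37 ± 0.08), Plekhm2, a lysosome positioning protein (log2 change 0.33 ± 0.21 and log2 change 0.30 ± 0.09), Trrap, a scaffold of histone acetyltransferase complexes (log2 change 0.26 ± 0.18 and log2 change 0.37 ± 0.15), Zfp191 (log2 change 0.40 ± 0.19 and log2 change 0.47 ± 0.11) and Ankrd10 (log2 change 0.49 ± 0.17 and log2 change 0.09 ± 0.10). Dhdpsl fell at both ages (log2 change -0.62 ± 0.23 and log2 change -0.64 ± 0.19). Among these, Irgm1, Akt1 and Dhdpsl passed limma at both ages.

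The 8 and 11 week tables shared 3 genes beside the repeated Rn4.5s. Pgk1 is given above. Ppif, the mitochondrial cyclophilin D, had 285, 329 and 216 normalized reads in the Tg197 libraries, against 183, 192 and 209 in the WT libraries at 8 weeks and 197, 189.5 and 213 normalized reads in the Tg197 libraries, against 152, 148 and 158 in the WT libraries at 11 weeks. Wdr63, a protein of ciliary dynein arms, was lower at 8 weeks (log2 change -0.76 ± 0.36, limma adjusted p = 0.0882) and fell at 11 weeks (log2 change -0.61 ± 0.16, limma adjusted p = 0.00459). For neither gene did the groups overlap at either age.

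The 8 week Tg197 and TNF comparisons share their 3 WT libraries, so values are given side by side and the overlap is not read as a result. At Peli1 the Tg197 libraries had 169.9, 152 and 171 normalized reads, and the TNF-treated libraries 194, 217 and 195 in a region of other bounds. At Skp2, a subunit of the ubiquitin ligase that degrades p27, the log2 change was 0.50 ± 0.23 in Tg197 and 0.54 ± 0.14 in TNF-treated cells. At Cd72 it was -1.05 ± 0.39 and -1.38 ± 0.44, at Mtap6 -0.81 ± 0.27 and -0.81 ± 0.17, and at Zmynd8, a chromatin reader, -0.70 ± 0.24 and -0.55 ± 0.22. The 3 week and TNF tables, which share no library, had 7 genes in common. Of these Bcr, S100pbp, Arl6ip6, Snx16, Dusp12 and 1810007M14Rik had positive and Atp1b2, a subunit of the sodium pump, negative log2 changes in both. Of all members, 87.9% at 3 weeks and 70.8% with TNF were higher. At Bcr the Tg197 libraries of 3 weeks had 322, 319 and 238 normalized reads, against 210.0, 222 and 245 in WT libraries. Tg197 library c lay inside the WT range there.

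By coordinates, proximal promoters also met listed regions of other classes in the other tables. Of the 463 members at 3 weeks, 43 overlapped a listed region at 11 weeks, 36 with the same and 7 with the opposite sign of change, and 22 overlapped one at 8 weeks, 15 with the same and 7 with the opposite sign. Of the 238 members at 11 weeks, 19 overlapped one at 8 weeks, 11 with the same and 8 with the opposite sign. The overlap of all listed regions was not counted and most members were higher at each age, so these signs are not read as a link between ages.

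At 3 weeks some genes had a higher region at the start and a lower region beside it. Of 407 higher proximal promoters, 36 had another listed promoter region of the same gene, and 31 of these carried a lower region while 5 carried a higher one. At B4galt1, a galactosyltransferase of the Golgi, the region at the start had a log2 change of 0.44, and a region centred at -1370.5 bp from it had 112, 84.1 and 43.5 normalized reads in the Tg197 libraries, against 135, 164 and 150.3 in the WT libraries. At Gpr146, an orphan receptor, the values were 0.41 at the start and -0.88 at 1443.5 bp. At Itpr3, a calcium channel of the endoplasmic reticulum, they were 0.53 and -0.72 at -1597.5 bp, and at Rps27l 0.30 and -0.78 at 2526.5 bp. At the 7 lower proximal promoters of 3 weeks with such a neighbour, the neighbouring regions were lower. In the other tables an opposite neighbour was found at 2 of 3 higher promoters with a neighbour at 8 weeks, 2 of 14 at 11 weeks and 5 of 8 with TNF. Of all listed regions of 3 weeks, 89.5% were lower, so a lower neighbour was the more frequent kind there.

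Promoter sequence was compared through RefSeq windows of 300 bases. A single window was found for 261 of 407 higher and 24 of 45 lower genes at 3 weeks, 40 of 73 and 22 of 40 at 8 weeks, 105 of 164 and 30 of 50 at 11 weeks, and 120 of 182 and 32 of 59 with TNF. Since fewer than 80% had one, the comparison is void as a check of base composition over all members and describes the matched genes only. At 3 weeks the median number of CpG was 27 at higher and 5 at lower genes, against 13 over 14730 protein-coding genes. The median was 22.5 and 10.5 at 8 weeks, 21 and 18 at 11 weeks, and 24 and 16 with TNF. Windows with at most 5 CpG, as at Gcm1 and Hrc above, made up 34.7% of all, 0.766% of the higher and 12 of 24 of the lower genes at 3 weeks, 6 of 22 lower genes at 8 weeks and 0 of 30 lower genes at 11 weeks. Median GC content of the windows was 66.3% at higher and 55.7% at lower genes at 3 weeks, and the part of GC content in the difference was not tested.

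**Figure D5:**
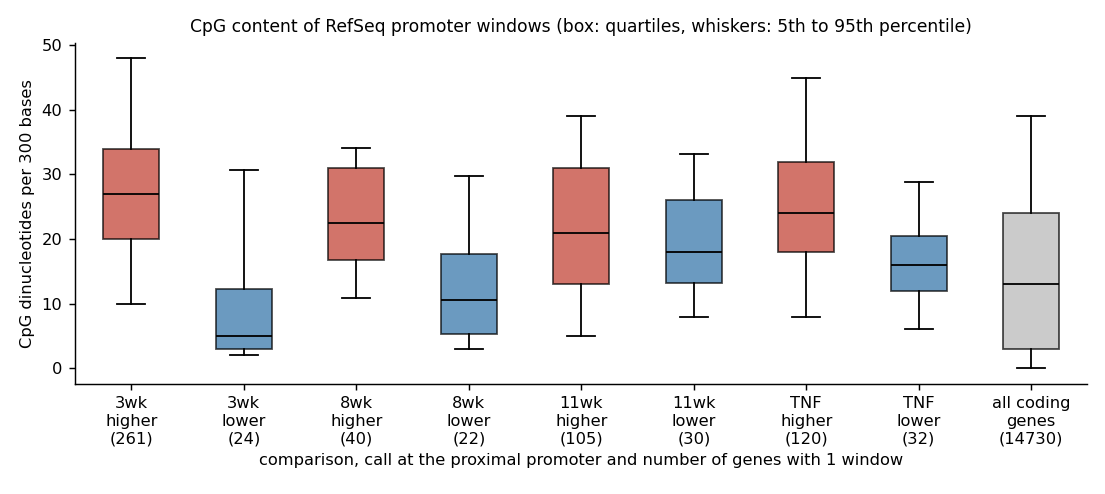
CpG dinucleotides per 300-base RefSeq window for genes with a higher (red) or lower (blue) proximal promoter in each comparison and for all protein-coding genes (grey), with the number of genes in brackets. Boxes show quartiles with the median, whiskers the 5th to 95th percentile. Medians of higher and lower genes were 27 and 5 at 3 weeks, and 21 and 18 at 11 weeks.

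Short motifs were searched on both strands of the same windows, and none of the words used contains another. GGGCGG, the GC box that Sp and Krüppel-like factors bind, was in 76.2%, 80%, 65.7% and 75% of the windows of higher genes at 3, 8 and 11 weeks and with TNF, and 45.3% of all windows. CCGGAAG, a core of Ets factor sites, was in 21.8%, 27.5%, 20% and 28.3% of the windows of higher genes at 3, 8 and 11 weeks and with TNF, and 11.8% of all windows. TATAAA was in 4.98%, 10%, 9.52% and 5.83% of the windows of higher genes at 3, 8 and 11 weeks and with TNF, and 14.3% of all windows. Windows of higher genes also held more CpG than windows over all genes. The NF-kB consensus was in 10.3%, 7.5%, 12.4% and 11.7% of the windows of higher genes at 3, 8 and 11 weeks and with TNF, and 8.69% of all windows. TGANTCA, the word of AP-1, was in 3.45%, 5%, 7.62% and 5% of the windows of higher genes at 3, 8 and 11 weeks and with TNF, and 7.09% of all windows. CCAAT, the word of NF-Y, was in 43.3%, 45%, 36.2% and 45% of the windows of higher genes at 3, 8 and 11 weeks and with TNF, and 39.6% of all windows. GCATGCG, part of the NRF1 site, was in 8.05%, 12.5%, 6.67% and 9.17% of the windows of higher genes at 3, 8 and 11 weeks and with TNF, and 4.39% of all windows, and CACGTG, the E-box of Myc and USF factors, was in 9.2%, 7.5%, 6.67% and 15% of the windows of higher genes at 3, 8 and 11 weeks and with TNF, and 7.72% of all windows. Windows of lower genes were few, with the GC box in 12 of 24 at 3 weeks, 9 of 22 at 8 weeks, 19 of 30 at 11 weeks and 21 of 32 with TNF. They held CCGGAAG in 1 of 24, 4 of 22, 8 of 30 and 5 of 32. They held TATAAA in 3 of 24, 6 of 22, 3 of 30 and 4 of 32. They held CCAAT in 14 of 24, 10 of 22, 11 of 30 and 22 of 32. The NF-kB consensus was in 4 of 24, 1 of 22, 2 of 30 and 1 of 32 windows of lower genes. TGANTCA was in 1, 1, 2 and 2 of them, GCATGCG in 0, 0, 2 and 3, and CACGTG in 1, 3, 4 and 4.

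Start sites paired head to head with a neighbour were more frequent among higher genes at 3 and 8 weeks and with TNF than over all windows. At 11 weeks their share was near that of all windows. The windows of all protein-coding genes were not matched for CpG content or H3K4me3. A RefSeq start on the opposite strand within 1 kb upstream was found for 24.1%, 25% and 13.3% of higher genes in the 3 age comparisons and 29.2% in the TNF comparison, against 11.8% of all windows, and for 2 of 24, 2 of 22, 2 of 30 and 3 of 32 lower genes. At such promoters a region of H3K4me3 cannot be assigned to 1 of the 2 genes. The centre of the region lay downstream of the TSS at 63.9% of higher and 51.1% of lower promoters at 3 weeks, at 60.3% and 44.2% at 8 weeks, at 52.4% and 60% at 11 weeks, and at 55.5% and 33.9% with TNF.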

How the data were processed

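H3K4me3 ChIP-seq of cultured synovial fibroblasts gave 21 libraries in 7 groups of 3 and 1 input library, grouped by the labels. The data were 4 deposited tables of regions on mm9. Per the submitters' processing notes, mm9 was used with BWA, TopHat, TopHat2, Cufflinks and Cuffdiff, with no version or role. What called the regions is not given there. Per the file headers, the authors gave 3 normalized counts for treatment and 3 for control per region, with the deposited group mean as signal, an enrichment ratio over input, a log2 fold change and p-values of the authors' test with adjusted p-values. The authors' signed distance to the TSS, recorded here as a score, was positive downstream on both strands and matched the class.

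Divided by the step of their library, 100% of normalized counts came out whole within 0.02, so reads and depth were recovered. Control was taken to mean WT, since in the 54 regions that both tables of 8 weeks share, 162 of 162 control values gave equal reads. The tables held another unit than had been foreseen, so edgeR was not run. The main test was limma 3.58.1 in R 4.3.3 on log2 values with a pseudocount of 0.5 and a variance trend, over each whole table and with Benjamini-Hochberg adjustment, and it was tested on simulated data. Log2 changes carry limma's standard error, means the SD (n = 3).

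Named genes were, per table, the 8 largest increases and decreases among members past the authors' adjusted p of 0.05 with a mean of at least 20 and no overlap of the groups, the 5 highest and lowest levels per kb, genes shared between ages, and listed members of gene lists. The members and lists were chosen with earlier results of these data known. Alternatives were other pseudocounts, a filter, voom, other scalings, stricter thresholds, a wider class of promoters and leaving out each library. Depth limits precision, and library depth varied within and between groups at 3 and 8 weeks and with TNF, where its part was not tested. Promoter sequences came from RefSeq (GRCm38.p6). Some members are not reported here.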

Additional observations from a re-analysis of the deposited data

How the results depend on the processing

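No log2 change of the largest increases and decreases named per comparison changed sign under any alternative that was run. Counts were compared in size only. With scaling to the listed regions, the median of the lower promoters changed sign at 3 and 8 weeks and with TNF. So did single members of the gene lists, as given above. With pseudocounts of 1 or 5, a mean of at least 20, 1 region per gene or an authors' adjusted p under 0.01, every count of proximal promoters stayed within 1.5 times its value. With scaling to the listed regions, 283 rose and 0 fell at 3 weeks, 33 rose at 8 weeks, 2 fell at 11 weeks and 1 fell with TNF. Scaled to regions up to 1 kb from a TSS, 0 rose at 3 weeks, 27 fell at 8 weeks, 95 rose at 11 weeks, and 46 rose and 51 fell with TNF. These shifts follow from the scalings, which move all regions of a table together. With voom 42 fell with TNF, and the cause was not tested. At an authors' adjusted p under 0.001, 40 were higher and 23 lower at 8 weeks, 106 and 32 at 11 weeks, and 74 and 23 with TNF. With all regions within 1 kb of a TSS, more regions enter, and limma called 455 risen and 359 fallen at 3 weeks, 493 and 304 at 11 weeks and 356 and 205 with TNF, while the authors' test had 1016 higher and 367 lower at 3 weeks, 316 and 267 at 8 weeks, 521 and 314 at 11 weeks and 541 and 493 with TNF. Leaving out each library in turn gave between 0 and 380 risen and 0 and 43 fallen promoters at 3 weeks, 0 to 41 and 0 to 37 at 8 weeks, 135 to 150 and 39 to 45 at 11 weeks, and 0 to 184 and 0 to 52 with TNF. Of the log2 changes of named promoters under the other alternatives, 326 kept their side of the threshold, 25 newly passed and 33 no longer passed, and with a library left out the numbers were 278, 20 and 86.

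No paired analysis was possible because the values in the tables carry no replicate numbers. The edgeR alternative was not run, since the deposited values are normalized. Promoters without a difference are not listed, so the scaling could not be checked on them, and library depth varied least at 11 weeks.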
